A study of Homo sapiens with 6 samples.

Results

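Integrin chains of epithelial cells were compared between the metastatic colon cancer line E1 and the poorly metastatic line HCT116. The list held 10 genes: the alpha chains ITGA2, ITGA3, ITGA5, ITGA6 and ITGAV, and the beta chains ITGB1, ITGB4, ITGB5, ITGB6 and ITGB8. Every probe set that the platform annotation gives to 1 of these symbols alone was kept. This left 21 probe sets of 9 genes, out of 22215 probe sets and 11963 genes. ITGB6 has no value here, since both of its probe sets are also annotated to another gene. The list was selected on an earlier result of the same comparison, a lower ITGA6 signal in E1, so the differences between the lines are given as a description and none of them supports that choice. No threshold on a value entered the rule.

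E1 (3 arrays) was derived in vivo and is labelled metastatic, although the cell line entry of its arrays names HCT116 as well. HCT116 (3 arrays), labelled poorly metastatic, is an established human colon cancer line. No treatment is named for either line. The labels do not give the host, the site of isolation, or whether E1 is 1 clone. Nor do they say whether the 3 arrays of a line came from separate cultures, so a p-value here speaks for the spread among arrays alone, and that spread may be technical. In bulk RNA, fewer cells that express a gene and less of its RNA in each cell cannot be told apart.

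Integrins are cell surface receptors made of 1 alpha and 1 beta chain, which bind proteins of the extracellular matrix outside the cell and connect to the cytoskeleton inside it. ITGA6 pairs with ITGB4 or ITGB1 to bind laminins, the main glycoproteins of basement membranes. With ITGB4 it forms the core of the hemidesmosome, which anchors intestinal and other epithelia to that membrane through keratin filaments. ITGB1 is shared by many alpha chains, ITGA2, ITGA3 and ITGA5 among them, and ITGAV pairs with ITGB1, ITGB5, ITGB6 or ITGB8.

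Array 1 of E1 differed from arrays 2 and 3 of E1 in transcript integrity controls. The signal at the 3' end of the GAPDH control over that at its 5' end was 0.803 on E1 array 1, 34.1 on E1 array 2 and 71.9 on E1 array 3, against 0.774 to 0.811 on the HCT116 arrays. Differences with E1 array 1 alone are therefore given beside the main differences with all arrays. Of 9 epithelial markers, EPCAM read 1692 to 3428 in E1 and 1885 to 2009 in HCT116. CDH1 read 584 to 959 in E1 and 486 to 938 in HCT116. The keratin KRT18 read 5677 to 6285 in E1 and 7509 to 8466 in HCT116, lower on all 3 E1 arrays. KRT19, also a keratin, read 3114, 2223 and 1172 on the E1 arrays, against 3561, 3107 and 3952 on the HCT116 arrays. LGALS4 read 13.9 to 79.8 in E1 and 55.6 to 63.2 in HCT116, and the intestinal markers CDX1, CDX2 and VIL1 stayed under 50 on all 6 arrays. These 9 summed to 11549 to 14619 in E1 and 16839 to 19463 in HCT116, and of them KRT8, another keratin, read 2862, 372 and 103 on the E1 arrays, against 4693, 3169 and 4352 on the HCT116 arrays. Summed signals were 306 to 444 in E1 and 385 to 440 in HCT116 for 8 fibroblast markers, 114 to 191 in E1 and 145 to 173 in HCT116 for 7 endothelial markers, and 127 to 189 in E1 and 137 to 201 in HCT116 for 6 leukocyte markers. None of the marker genes passed the test described below, and at an unadjusted p under 0.05 there were 2 epithelial, 1 endothelial, 0 fibroblast and 0 leukocyte markers.

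The regions around the starts of ITGA6 and ITGAV are shown because these chains were the ones whose every probe set separated the lines without overlap, in opposite directions. They are RefSeq sequences of GRCh38.p14, 250 bases before and 50 after an annotated start, both genes lying on chromosome 2. ITGA6 has 2 annotated starts in the table, at chr2:172427086-172427385 and chr2:172427336-172427635 (plus strand). For ITGAV the first of 2 is shown, at chr2:186589806-186590105 (plus strand). Capitals mark the GC box GGGCGG, searched on both strands.
ITGA6, first start: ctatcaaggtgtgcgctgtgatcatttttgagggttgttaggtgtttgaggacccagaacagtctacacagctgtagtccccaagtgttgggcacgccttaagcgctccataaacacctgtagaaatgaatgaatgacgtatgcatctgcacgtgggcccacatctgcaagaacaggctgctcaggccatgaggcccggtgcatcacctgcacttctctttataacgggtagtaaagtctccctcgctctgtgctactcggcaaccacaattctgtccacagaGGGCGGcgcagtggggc
ITGA6, second start: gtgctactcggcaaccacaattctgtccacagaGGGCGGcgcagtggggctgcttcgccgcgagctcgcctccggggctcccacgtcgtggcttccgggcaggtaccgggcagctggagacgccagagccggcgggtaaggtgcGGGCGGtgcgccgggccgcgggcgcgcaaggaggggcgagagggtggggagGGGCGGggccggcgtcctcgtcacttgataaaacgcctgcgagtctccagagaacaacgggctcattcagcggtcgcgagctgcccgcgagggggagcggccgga
ITGAV, first start: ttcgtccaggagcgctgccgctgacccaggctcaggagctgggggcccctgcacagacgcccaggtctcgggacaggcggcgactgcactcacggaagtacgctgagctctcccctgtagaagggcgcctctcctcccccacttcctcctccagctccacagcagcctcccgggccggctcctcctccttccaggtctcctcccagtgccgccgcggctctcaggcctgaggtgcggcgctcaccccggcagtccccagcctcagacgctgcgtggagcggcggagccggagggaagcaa
The ITGA6 windows overlap, and they held 1 and 3 GC boxes, of which 1 lies in the shared stretch. The ITGAV window shown held 0, at a GC content of 70.7%, close to the 72.0% of the second ITGA6 window. The second ITGAV window, not shown, also held 0, at a GC content of 41.3%. Among the other listed chains, windows of ITGA2 held 4, of ITGA5 1 and of ITGB8 2. Those of ITGB1 held 0 and 3, those of ITGB5 2 or 3, and that of ITGB6 0. No window was available for ITGA3 or ITGB4. A GC box was present in 44.9% of all 34943 RefSeq windows of 300 bases. The first ITGA6 window also held 2 copies of the E-box CACCTG, present in 20.6% of windows, and 1 of TATAAA, present in 11.6%. The AP-1 site TGANTCA, present in 7.72% of windows, was in none of the 3 sequences. Both strands were searched for each motif, and a match is a description of letters, not a bound site.

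Across the 21 integrin probe sets, 1 passed the test, an ITGA6 probe set that was lower in E1. The test is a limma fit to log2(intensity + 32) over all 22215 probe sets, with a Benjamini-Hochberg adjusted p under 0.05, and differences are E1 minus HCT116 with their standard error (SE). In that fit 0.770% of all probe sets passed in either direction and 0.554% passed as lower. On 5 of the 21 the 3 arrays of E1 did not overlap those of HCT116, 1 higher in E1 (ITGAV) and 4 lower (2 each of ITGA6 and ITGB4), against 20.5% of all probe sets in either direction and 13.0% lower. The same 5 had an unadjusted p under 0.05, as did 16.5% of all probe sets. Without E1 array 1, 5 of the 21 passed, against 10.6% of all probe sets. Since the comparison entered the choice of genes, nothing is read from these counts. The median difference was -0.13 over the 21 integrin probe sets and -0.02 over all probe sets. With E1 array 1 alone these medians were 0.07 and -0.05.

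**Figure D1:**
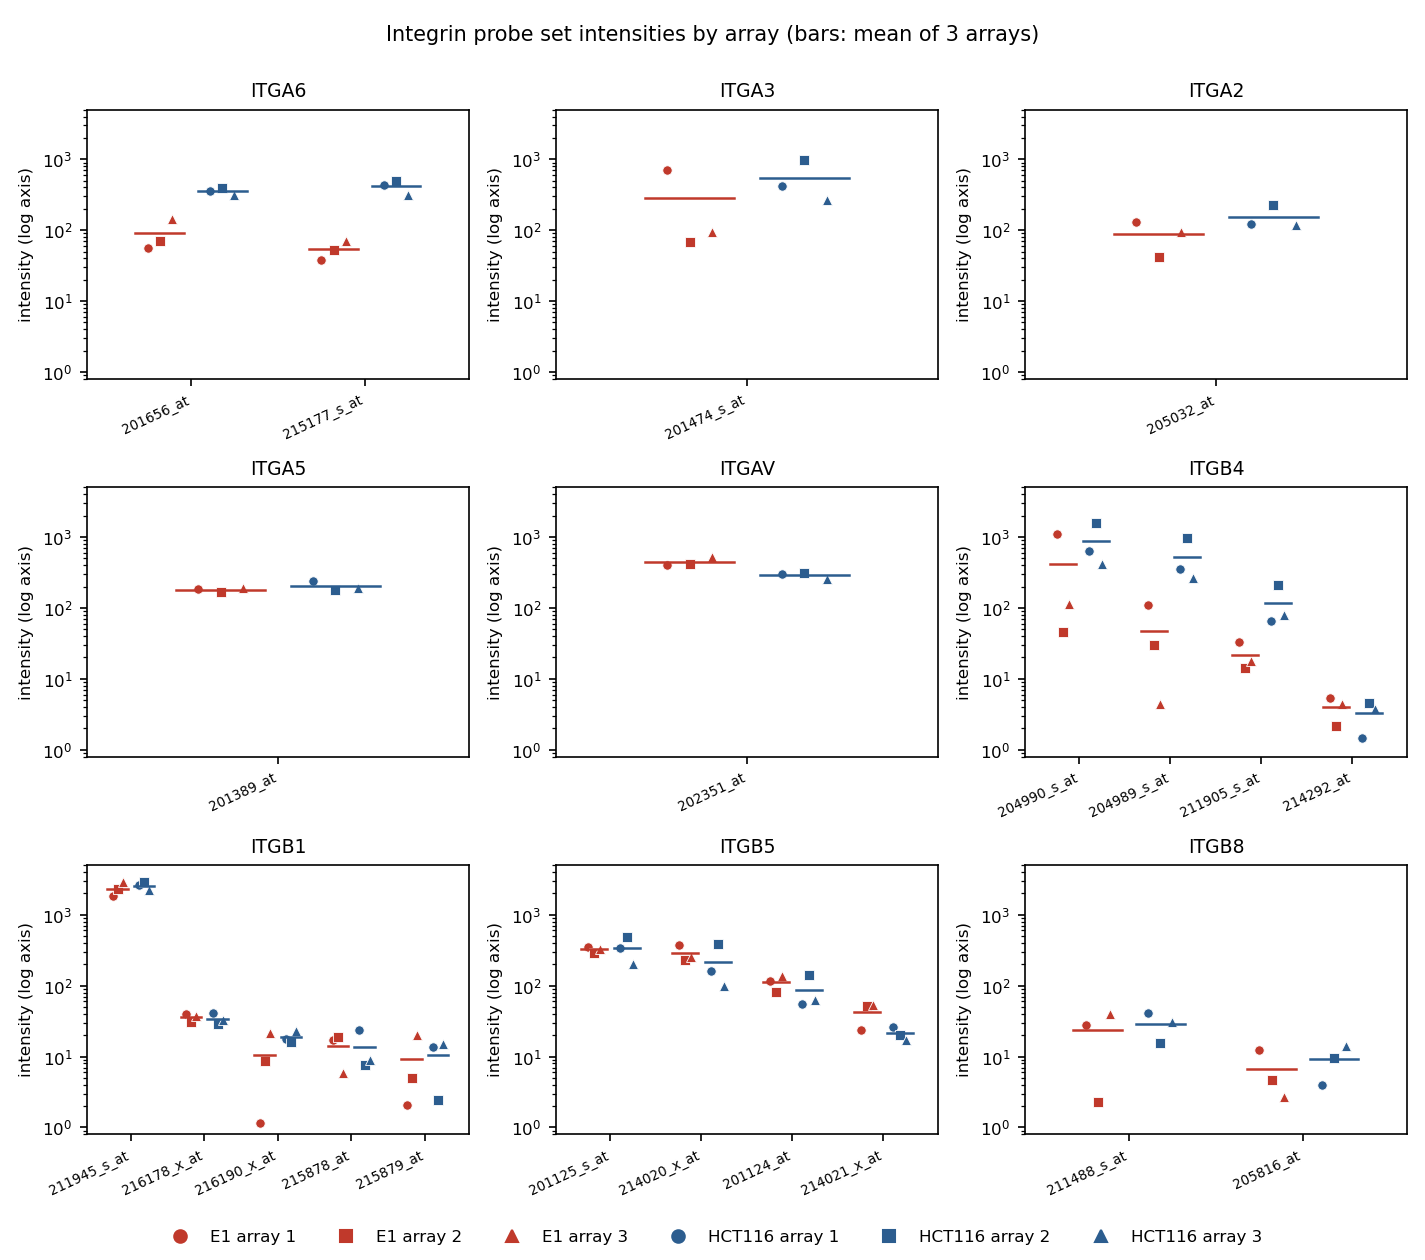
Intensity on a log axis of each integrin probe set on the 3 E1 arrays (red) and the 3 HCT116 arrays (blue), with 1 panel a gene, marker shapes for the array number and bars for the mean of 3 arrays. ITGA6 is lower on all 3 E1 arrays at both probe sets, while ITGA3 and the first ITGB4 probe set are low on E1 arrays 2 and 3 and not on E1 array 1.

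ITGA6, the laminin-binding alpha chain of hemidesmosomes, had 2 probe sets. The probe set 215177_s_at read 38.2, 53.1 and 69.8 on the E1 arrays, against 433, 493 and 315 on the HCT116 arrays. All 3 E1 arrays lay far below all 3 HCT116 arrays, and E1 array 1, whose control ratio resembled HCT116, was the lowest. The mean was 53.7 ± 15.8 in E1 and 413.5 ± 90.2 in HCT116 (SD, n = 3 each), an E1 level of 0.130 times that of HCT116. On the log2(intensity + 32) scale ITGA6 fell by 2.37 (SE 0.21, limma adjusted p = 0.0169), and the difference was -2.64 with E1 array 1 alone. The call was lost when any 1 array other than E1 array 1 was left out, at limma adjusted p from 0.0651 to 0.131. In those fits 5 to 9 of all probe sets passed, against 171 with all arrays. The call was also lost with E1 array 1 alone. The ITGA6 difference stayed between -2.94 and -1.73 over 14 alternatives.

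The other ITGA6 probe set, 201656_at, had the higher mean log2 value over the 6 arrays. It read 55.2, 70.4 and 145.5 on the E1 arrays, against 352, 393 and 309 on the HCT116 arrays. Here too the lines did not overlap, and E1 array 3 came nearest to HCT116. The difference was -1.71 (SE 0.28), or -2.13 with E1 array 1 alone, and the probe set did not pass in limma over all probe sets (adjusted p = 0.0649). In limma it passed when the dimmest 40% of probe sets were left out (adjusted p = 0.0220), with a trended and robust fit (0.0397) and when E1 array 1 was dropped (0.0262). The mean of both ITGA6 probe sets passed at -2.04 (limma adjusted p = 0.0360).

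ITGA3, an alpha chain that binds laminins together with ITGB1, had 1 probe set. It read 700.4, 67.8 and 93.0 on the E1 arrays, against 419, 967 and 270 on the HCT116 arrays. E1 array 1 lay inside the HCT116 range, and E1 arrays 2 and 3, those with the high control ratios, lay below it. The difference was -1.30 (SE 0.84, limma adjusted p = 0.508) over all 3 E1 arrays, against 0.51 from E1 array 1 alone, so its direction turned with the E1 arrays used.

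ITGA2, the alpha chain of a collagen receptor, read 132, 41.3 and 93.8 on the E1 arrays, against 121, 223 and 118 on the HCT116 arrays. E1 array 1 was again within the HCT116 range and the other E1 arrays below it. The difference was -0.65 (SE 0.36, limma adjusted p = 0.429), and -0.13 with E1 array 1 alone.

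Of the alpha chains that recognise the RGD motif, ITGA5, the fibronectin receptor chain, read 188, 166 and 189 on the E1 arrays, against 242, 177 and 188 on the HCT116 arrays. The lines overlapped, and the difference of -0.13 had a 95% interval of -0.48 to 0.22. Quantile normalization and subtraction of array medians turned it to 0.07 and 0.02, where the medians of all probe sets were 0.05 and 0.13. With E1 array 1 alone it was -0.08.

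ITGAV, a receptor chain for vitronectin and, with ITGB6 or ITGB8, for latent TGF-beta, read 404, 416 and 517 on the E1 arrays, against 305, 313 and 254 on the HCT116 arrays. Every E1 array was above every HCT116 array. The mean was 446 ± 62.3 in E1 and 291 ± 31.7 in HCT116 (SD, n = 3 each), 1.53 times as high in E1. The difference of 0.56 (SE 0.15) did not pass in limma (adjusted p = 0.167), and it was 0.44 with E1 array 1 alone and positive in all 16 alternatives that gave another fit, from 0.44 to 0.71.

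ITGB4, the hemidesmosome partner of ITGA6, had 4 probe sets that did not behave alike on E1 array 1. The probe set 204990_s_at read 1086, 46.3 and 112 on the E1 arrays, against 635, 1592 and 411 on the HCT116 arrays. E1 array 1 was within the HCT116 range and E1 arrays 2 and 3 were far below it. The difference was -1.75 (SE 1.04, limma adjusted p = 0.468) over all 3 E1 arrays, and 0.51 from E1 array 1 alone.

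At a further ITGB4 probe set, 204989_s_at, the E1 arrays read 109, 30.0 and 4.41, against 354, 954 and 261 on the HCT116 arrays. At 211905_s_at the E1 arrays read 33.3, 14.1 and 18.0, against 66.0, 212 and 79.4 on the HCT116 arrays. At both of these, all 3 E1 arrays, array 1 included, lay below all HCT116 arrays, unlike at 204990_s_at. Their differences were -2.82 (SE 0.63, limma adjusted p = 0.123) and -1.38 (SE 0.37, limma adjusted p = 0.170), or -1.77 and -1.09 with E1 array 1 alone. The first passed in limma when dim probe sets were left out (adjusted p = 0.0409). Dropping E1 array 1 also let it pass in limma, together with 204990_s_at (adjusted p of 0.0239 and 0.0411). The fourth, 214292_at, read 2.18 to 5.39 in E1 and 1.48 to 4.61 in HCT116, with no difference to read at that signal (0.03, or 0.09 with E1 array 1 alone). The part of the E1 array 2 and 3 control ratios in the ITGA3, ITGA2 and ITGB4 differences was not tested.

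**Figure D2:**
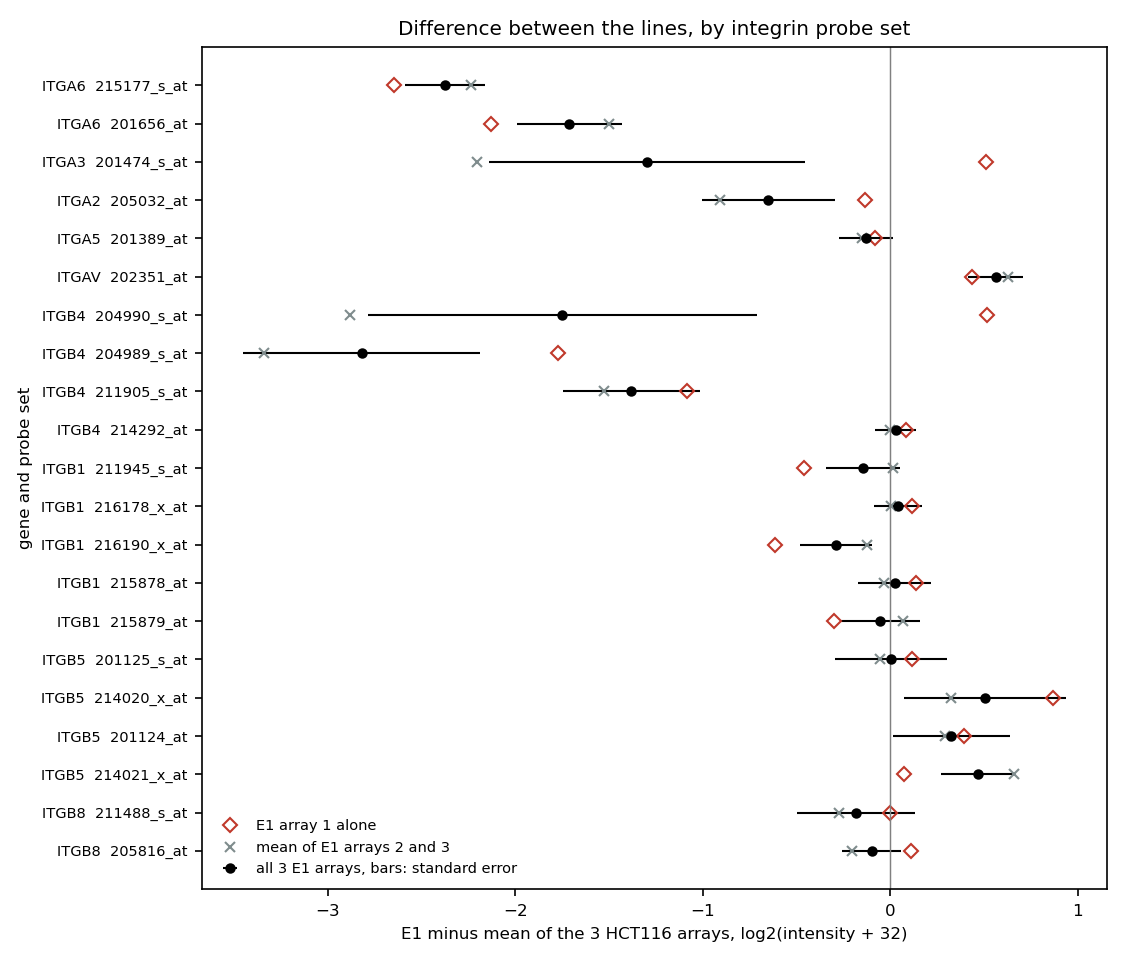
Difference in log2(intensity + 32) between E1 and HCT116 for each integrin probe set, with all 3 E1 arrays (black points, bars for the standard error), E1 array 1 alone (red diamonds) and the mean of E1 arrays 2 and 3 (grey crosses). The symbols lie within 0.63 of each other at ITGA6 201656_at, from -2.13 to -1.50, but at ITGB4 204990_s_at they run from -2.88 to 0.51.

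ITGB1, the common beta chain, had 5 probe sets, of which 1 was bright. The probe set 211945_s_at read 1839, 2299 and 2868 on the E1 arrays, against 2614, 2858 and 2205 on the HCT116 arrays. The lines overlapped, E1 holding both the lowest and the highest array. The difference of -0.15 had a 95% interval of -0.63 to 0.33, was -0.46 with E1 array 1 alone and 0.00 with array medians subtracted. The other ITGB1 probe sets had means of 9.74 to 35.0 over the 6 arrays and differences of -0.29 to 0.04, or -0.62 to 0.13 with E1 array 1 alone, none past the test (adjusted p from 0.521 to 0.977 in limma).

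ITGB5, a vitronectin receptor chain that pairs with ITGAV, had 4 probe sets. The probe set 201125_s_at read 352, 290 and 330 on the E1 arrays, against 335, 492 and 199 on the HCT116 arrays. All 3 E1 arrays fell within the HCT116 range, and the difference was 0.00 with a 95% interval of -0.72 to 0.73, or 0.12 with E1 array 1 alone. The remaining probe sets, 214020_x_at, 201124_at and 214021_x_at, had differences of 0.51, 0.33 and 0.47 (limma adjusted p of 0.642, 0.687 and 0.310). Their arrays overlapped between the lines. With E1 array 1 alone they were 0.87, 0.39 and 0.07. The last, among the dimmest 40% of probe sets, passed in limma without E1 array 1, at 0.66 (adjusted p = 0.0365).

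ITGB8, a chain known for activating latent TGF-beta with ITGAV, was dim at both probe sets. The probe set 211488_s_at read 2.27 to 40.2 in E1 and 15.5 to 41.0 in HCT116, and 205816_at read 2.73 to 12.4 in E1 and 3.98 to 14.3 in HCT116. Both lay among the dimmest 40% of probe sets, as did 8 of the 21 integrin probe sets, and no order is read from their differences of -0.18 and -0.10, or 0.00 and 0.11 with E1 array 1 alone.

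Array 2 of HCT116 stood above the other HCT116 arrays for some integrin chains and not for others. This array is part of the comparison that entered the choice of genes. Several of the probe sets belong to the same gene, so the counts are a description. At 7 of the 21 probe sets it read at least 1.5 times the higher of HCT116 arrays 1 and 3, against 8.05% of all probe sets. Among probe sets with a mean intensity of at least 100 it did so at 5 of 11 integrin probe sets, against 5.18% of 8930. These 7 were the ITGA2 and ITGA3 probe sets, 3 of ITGB4 and 2 of ITGB5, with ratios of 1.85 to 2.70. ITGB5 201125_s_at, with a ratio of 1.47, lay just under 1.5. ITGA6, ITGAV, ITGA5 and the bright ITGB1 probe set had ratios of 0.731 to 1.14. Among the 62 pathway genes described further on, HCT116 array 2 stood this high at 5, against 7.21% of all genes. LAMB3, a subunit of a laminin that ITGA3 and ITGA6 bind, was named after its values were seen. It had the largest such ratio among the 62, 3.16. Without HCT116 array 2 the differences between E1 and HCT116 were -0.82 for ITGA3, -2.30 for ITGB4 204989_s_at and -2.25 for ITGA6 215177_s_at. That ITGA6 value did not pass, at a limma adjusted p of 0.0795, in a fit where 6 of all probe sets passed.

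**Figure D3:**
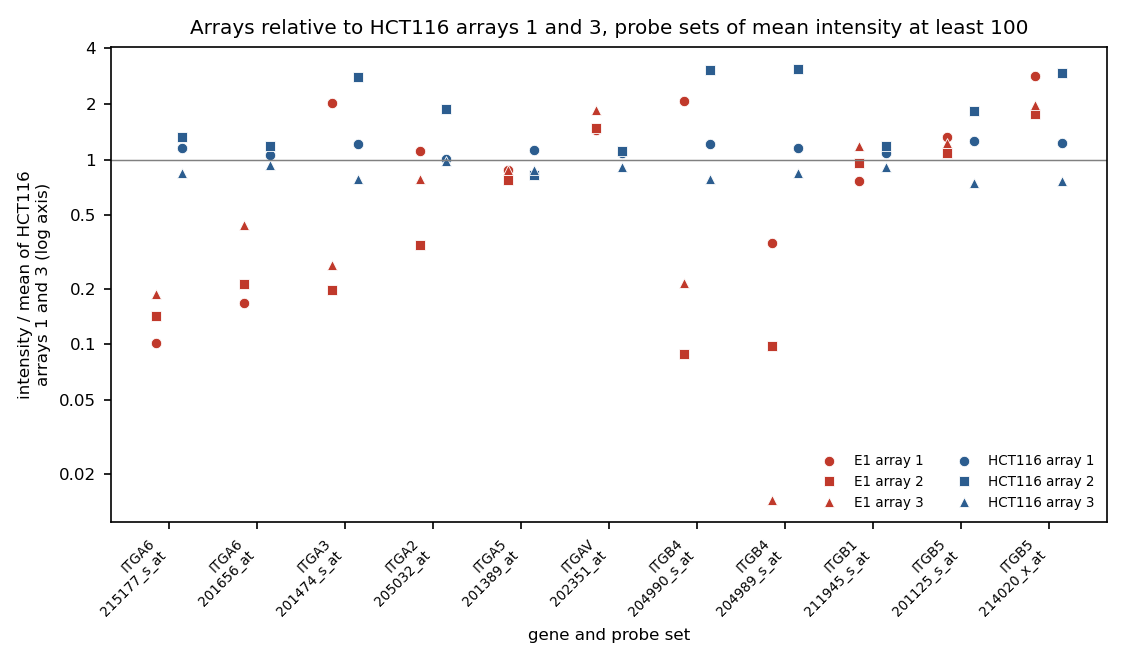
Intensity of each array over the mean of HCT116 arrays 1 and 3, on a log axis, for the 11 integrin probe sets with a mean intensity of at least 100, E1 in red and HCT116 in blue. HCT116 array 2 (blue squares) lies high at ITGA3, ITGA2, ITGB4 and ITGB5, and near the other HCT116 arrays at ITGA6 and ITGAV.

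The genes most like ITGA6 over the 6 arrays were found by centring each gene's log2 values on their mean and taking the root mean square difference from ITGA6 201656_at, among 5794 genes with a mean intensity of at least 100. They were CAV1, the coat protein of caveolae, at 0.23, IGF2BP3, an RNA-binding protein, at 0.29, KLF4, a transcription factor, at 0.32, F3, the tissue factor of coagulation, at 0.33, and GOSR1, a Golgi SNARE protein, at 0.33. The second ITGA6 probe set stood at 0.38. The likeness is a description, since all values share the same 6 arrays and much of it is the step between the lines. CAV1 at 203065_s_at read 321, 397 and 488 on the E1 arrays, against 1820, 1552 and 1465 on the HCT116 arrays. Its difference of -1.93, or -2.21 with E1 array 1 alone, follows from the choice of genes that resemble ITGA6 on these arrays. No test is given for it. At the CAV1 probe set with the higher signal, 212097_at, the difference was -0.92, or -1.46 with E1 array 1 alone.

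Genes around the integrins were grouped in 4 lists, each gene being read from its brightest probe set by mean log2 value. The lists were drawn up with earlier results of these arrays known, so nothing is read from the counts in them. None of the 62 measured genes passed in limma, where 0.518% of 11963 genes did, and 15 had an unadjusted p under 0.05, 5 higher and 10 lower in E1, against 15.2% of genes. Leaving out E1 array 1 gave 13 that passed, 4 higher and 9 lower, in a fit where 9.68% of all genes passed. With E1 array 1 alone 0 passed, and 8 had an unadjusted p under 0.05, as did 12.1% of all genes. The median difference of the 62 was -0.03, against -0.01 over all genes.

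Of 16 other integrin chains, 14 were measured, none with an unadjusted p under 0.05, against 15.2% of all genes. The 2 with the smallest p were ITGB3, a partner of ITGAV, at 0.32 (SE 0.13), and ITGA4, a leukocyte chain, at -0.29 (SE 0.14). With E1 array 1 alone the differences were 0.24 for ITGB3 and -0.31 for ITGA4. ITGB3 read 56.1, 55.9 and 71.0 on the E1 arrays, against 51.3, 38.9 and 37.7 on the HCT116 arrays, and ITGA4 read 10.2 to 14.4 in E1 and 15.2 to 29.7 in HCT116. Both signals were low. The other 2 probe sets of ITGA4 differed in the opposite direction, and of the 6 others of ITGB3, 4 shared its sign.

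Of 20 matrix ligands, 17 were measured. In this list 3 had an unadjusted p under 0.05, 2 higher and 1 lower in E1, against 15.2% of all genes. COL18A1, a basement membrane collagen, read 228, 167 and 218 on the E1 arrays, against 101, 86.5 and 77.2 on the HCT116 arrays. All E1 arrays were higher, by 0.97 (SE 0.16, limma adjusted p = 0.0634), or 1.12 with E1 array 1 alone. In limma COL18A1 passed after quantile normalization (adjusted p = 0.0268), after subtraction of array medians (0.0270) and when E1 array 1 was dropped (0.0311). The only other COL18A1 probe set differed the opposite way, at -0.88. LAMC1, the gamma subunit of most laminins, read 163, 163 and 325 on the E1 arrays, against 437, 515 and 329 on the HCT116 arrays. E1 array 3 came next to the lowest HCT116 array. The difference was -0.92 (SE 0.29, limma adjusted p = 0.218), or -1.22 with E1 array 1 alone. At the other LAMC1 probe set it was -0.87 with all arrays.

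Of 12 hemidesmosome and membrane partner genes, 11 were measured, with a median of -0.92 and -0.19 with E1 array 1 alone. In this list 5 had an unadjusted p under 0.05, 1 higher and 4 lower in E1, against 15.2% of all genes. DST, which encodes the hemidesmosome plakin BPAG1 among other forms, read 477, 480 and 895 on the E1 arrays, against 251, 253 and 222 on the HCT116 arrays. It was higher on every E1 array, by 1.19 (SE 0.25, limma adjusted p = 0.114), or 0.89 with E1 array 1 alone. However, 3 of the 7 other DST probe sets differed the opposite way. PLEC, plectin, which ties ITGB4 to keratin filaments, read 124, 53.4 and 66.9 on the E1 arrays, against 231.5, 178 and 183 on the HCT116 arrays. It was lower on every E1 array, with a difference of -1.06 (SE 0.25, limma adjusted p = 0.136), or -0.55 from E1 array 1 alone, and its 2 probe sets averaged passed at -1.49 (limma adjusted p = 0.0487). CD151, a tetraspanin that binds ITGA3 and ITGA6, was named after its values were seen. It read 538, 35.0 and 23.5 on the E1 arrays, against 452, 586 and 504 on the HCT116 arrays, so that E1 array 1 lay within the HCT116 range and the other E1 arrays far below it.

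Of 25 genes of integrin activation and the adhesion plaque, 20 were measured. In this list 7 had an unadjusted p under 0.05, 2 higher and 5 lower in E1, against 15.2% of all genes. SHARPIN, an inhibitor of integrin activation, read 33.5, 4.59 and 4.81 on the E1 arrays, against 77.2, 79.0 and 39.7 on the HCT116 arrays. Zyxin, ZYX, a focal adhesion LIM protein, read 383, 86.8 and 60.7 on the E1 arrays, against 523, 453 and 425 on the HCT116 arrays. In both, E1 arrays 2 and 3 were the lowest and E1 array 1 lay nearer to HCT116. The differences were -1.10 (SE 0.30) for SHARPIN and -1.58 (SE 0.55) for ZYX (limma adjusted p of 0.173 and 0.249), and -0.54 and -0.26 with E1 array 1 alone. The pattern of E1 array 1 inside the HCT116 range with E1 arrays 2 and 3 both below it occurred at 8 of the 62 list genes and at 7.59% of all genes. Among the integrin probe sets it occurred at 3 of 21, those of ITGA2, ITGA3 and ITGB4 204990_s_at, and at 7.36% of all probe sets.

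**Figure D4:**
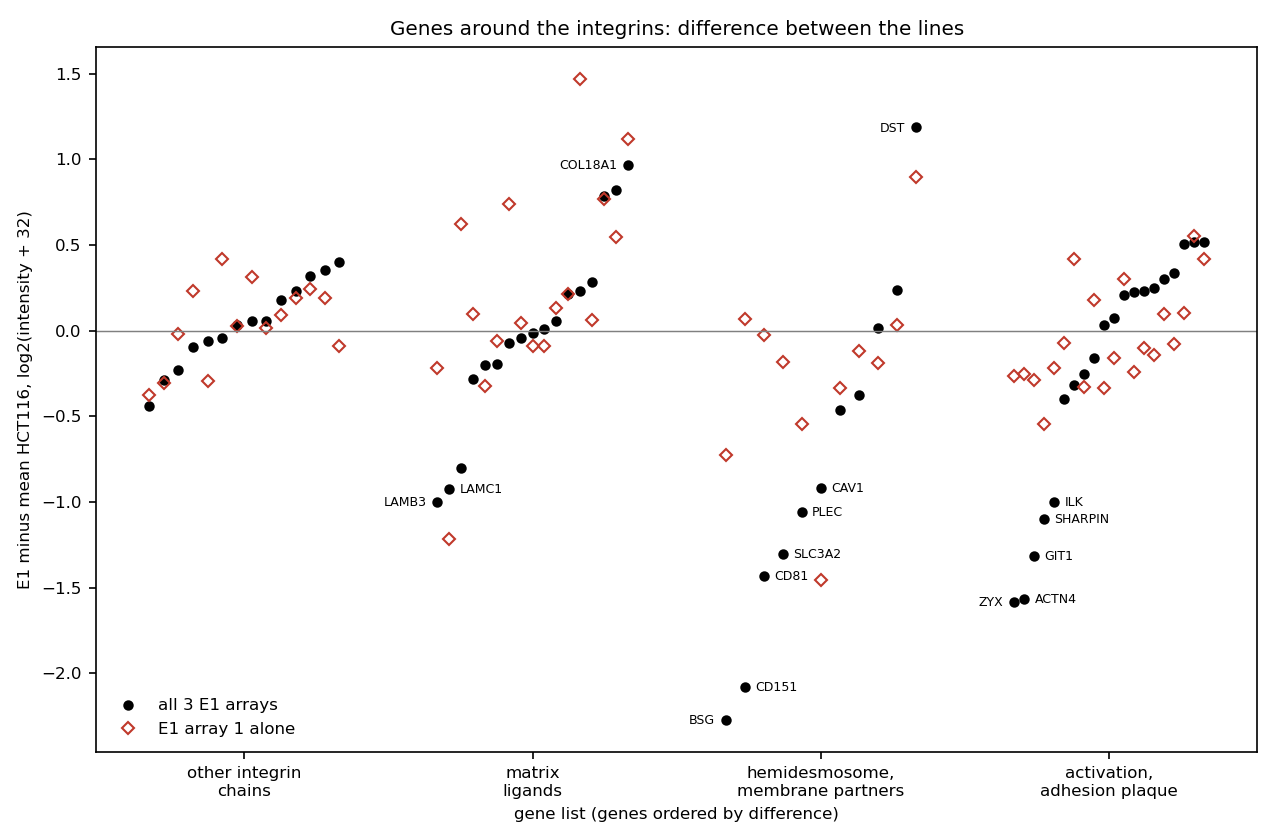
Difference in log2(intensity + 32) between E1 and HCT116 for the 62 measured genes of 4 lists around the integrins, with all 3 E1 arrays (black points) and with E1 array 1 alone (red diamonds). Genes with a difference of at least 0.90 in size are named. In the hemidesmosome and membrane partner list most black points lie below the diamonds, BSG at -2.27 against -0.72 and CD151 at -2.08 against 0.07.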

How the data were processed

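RNA of E1 (3 arrays) and HCT116 (3 arrays) was extracted with Trizol, labelled with biotin and hybridised to Affymetrix arrays, per the labels' protocols. The deposited values were taken to be linear probe set intensities. Summarization, background correction and scaling were not given in the sources used here. Of 22283 probe sets, 68 controls were left out. The platform annotation gave 19065 of the rest 1 symbol, 1043 several and 2107 none. Of 83 listed genes, 71 were measured, and each of these kept its symbol in the RefSeq gene table.

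Values were analysed as log2(intensity + 32), which shrinks differences of dim probe sets, with no further scaling. Median intensities were 61.3, 48.1 and 53.7 on E1 arrays 1, 2 and 3, against 61.9 to 66.6 on the HCT116 arrays. lmFit and eBayes of limma 3.58.1 (R 4.3.3) compared E1 with HCT116 over all 22215 probe sets, with Benjamini-Hochberg adjustment. The fit was tested on simulated data with 200 changed probe sets. With 3 arrays a line, the number of arrays limits the precision. Text and plots used Python 3.11.15, pandas 2.3.3 and matplotlib 3.10.9.

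Members, lists, alternatives and the separate reading of E1 array 1 were chosen with earlier results of these data known. Named were all member probe sets, the 5 genes most like ITGA6, and in each list the genes past the threshold, or else the 2 with the smallest p. CD151, BSG, LAMB3, PXN and the single markers fall outside that rule. Alternatives were 2 scalings, 2 offsets, a filter on dim probe sets, 1 probe set per gene or their average, exclusion of shared-sequence probe sets (_x_at, _s_at), a trended robust fit, the replicate number as a block, each array left out, E1 array 1 alone, and a threshold of 0.01.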

Additional observations from a re-analysis of the deposited data

How the results depend on the processing

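In limma, 171 of all probe sets, 1 integrin probe set and 0 pathway genes passed at an adjusted p under 0.05. The count over all probe sets was 187 after quantile normalization, 206 with array medians subtracted and 231 with a trended robust fit. With an offset of 100 it was 111, and without the dimmest 40% it was 310. It was 50 with 1 probe set per gene and 47 with each gene's probe sets averaged. Without shared-sequence probe sets it was 28, and at a threshold of 0.01 it was 5. It was 0 with E1 array 1 alone (2791 at an unadjusted p under 0.05), and leaving out single arrays gave 5 to 2358, the highest without E1 array 1. The integrin count was 3 without the dimmest 40%, 2 with a trended robust fit, and 0 with 1 probe set per gene, without shared-sequence probe sets, with E1 array 1 alone and at 0.01. The ITGA6 probe set behind the count of 1 was itself not tested with 1 probe set per gene or without shared-sequence probe sets. Those 2 counts of 0 therefore do not show that its call was lost. The other ITGA6 probe set was tested there and did not pass (limma adjusted p of 0.0885 and 0.0934). The integrin count ran from 0 to 5 with single arrays left out, the highest without E1 array 1. Pathway genes numbered 1 (COL18A1) under either scaling, 2 (PXN and PLEC) with averaged probe sets, and 0 to 13 with single arrays left out, the highest without E1 array 1. Fewer features or arrays were tested in several of these; for the offset, scalings and trended fit the cause was not tested.

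The mean of both ITGA6 probe sets passed at -2.04. ITGA6 201656_at passed at -1.71 without dim probe sets and with the trended fit. With single arrays left out it ran from -2.01 to -1.50 and passed only without E1 array 1. Its difference was negative in each alternative run. Signs near 0 turned for ITGA5 under both scalings, and for ITGB1 211945_s_at, ITGB1 215879_at and ITGB8 205816_at with array medians subtracted. The deviations of E1 and HCT116 arrays with the same number from their line means had correlations of -0.04, -0.31 and -0.09. With 3 arrays a line, and E1 array 1 apart in its control ratio, these cannot decide whether the numbers pair the arrays. With the replicate block 0 of all probe sets (3126 at an unadjusted p under 0.05) and 0 integrin probe sets passed, ITGA6 215177_s_at at -2.37 with an adjusted p of 0.146. Dim signal limits both ITGB8 and 4 ITGB1 probe sets, ITGB4 214292_at and ITGB5 214021_x_at.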
